A study of Caenorhabditis elegans with 12 samples.

Results

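The genes described are the major sperm proteins (msp), the sperm-specific family, class P (ssp) and the nematode-specific peptide family, group D (nspd) of Caenorhabditis elegans. Members were taken by name, as every gene whose symbol starts with msp-, ssp- or nspd- followed by a number and that has a probe on the arrays. A reference gene table lists 60 such genes, of which 48 had a matched probe, out of 19814 genes with a probe in all. These were 27 msp genes, 11 ssp genes and 10 nspd genes, with 71 probes between them. Members are called measured where some group had the probe well above background on each of its 3 arrays, which held for 47. The remaining member, nspd-8, was well above background on 5 of 12 arrays, at 0, 2, 2 and 1 arrays of the 4 groups in the order given below. Of the 12 genes with no matched probe, 8 were msp genes (msp-10, msp-53, msp-57, msp-58, msp-65, msp-71, msp-77 and msp-113), 2 were ssp genes (ssp-9 and ssp-28) and 2 were nspd genes (nspd-11 and nspd-12).

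Total RNA of whole adult worms was measured on 12 single-colour arrays, 3 for each of 4 groups. The first group was N2, the Bristol wild-type strain, grown at 15 °C. For the next groups, N2 worms were moved to 25 °C for 3 h or for 12 h. The fourth group was daf-2(e1370), a strain with a missense allele of the insulin-like receptor gene, after 12 h at 25 °C, so the design has no daf-2 worms at 15 °C. All worms were well fed and uncrowded, and temperature was the treatment stated. The series describes growth at 15 °C until young adulthood before the shift, and gives no exact age for any group. Each group holds an array of set A, of set B and of set 1, after the marks in the sample titles. In the source labels A and 1 carry the same replicate number, 1, while B carries 2. Whether sets A and 1 came from separate worms is therefore unknown, and the p-values below reflect only array-to-array spread, which may be technical.

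Major sperm proteins are small, very abundant proteins of nematode sperm. They assemble into the filaments that drive the crawling of the amoeboid sperm cell, and when released from sperm they also act as a signal that triggers oocyte maturation and contraction of the gonadal sheath. Hermaphrodites make sperm first, store them in the spermatheca and then switch to making oocytes. Sperm genes are transcribed while sperm form, and mature sperm do not transcribe. The ssp genes encode small proteins related to the major sperm proteins, and the nspd genes encode short nematode-specific peptides whose function is little known.

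Many msp genes are near-identical copies: 28 of the 35 listed msp genes, 22 of them measured, have the same length of 384 bases in the reference. Probe sequences were not compared here, so signal from near-identical copies cannot be assigned to 1 gene, and the msp genes are not independent of each other. The members also lie close together in the genome. Each of the 35 listed msp genes has another member among the 30 genes on either side, and 49 of the 60 listed members do, in neighbourhoods of up to 11 members.

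All signals below are log2 values relative to the 75th percentile of the array, so that a difference of 1 is a factor of 2. Values for a group are given in the order set A, set B and set 1. Each set was 1 slide. The slides of sets A and B share a scan day that differs from that of set 1. A group had the same slide position in every set, so position and group cannot be told apart. Between 55.5% and 61.3% of spots were well above background in sets A and B, against 80.8% to 84.9% in set 1. Across all genes, arrays of a group correlated at 0.919 to 0.983. The signal of daf-2 itself was -1.13, -1.02 and 0.18 at 15 °C, -0.89, -1.29 and 0.60 after 3 h, -0.81, -0.70 and 0.08 after 12 h and -0.32, -0.77 and 0.07 in daf-2, and since e1370 is a missense allele this level does not check the strain label.

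Signals of the msp genes varied widely between arrays of 1 group. The median over the 27 measured msp genes was 1.69, 6.11 and 1.88 in N2 at 15 °C. It was 3.54, 6.07 and 3.75 after 3 h at 25 °C, 4.37, 5.78 and 2.66 after 12 h, and 2.97, 0.36 and 2.94 in daf-2. Set B was thus the highest array in each N2 group and the lowest in daf-2. The 41 msp probes held 0.0745%, 1.60% and 0.0824% of the summed signal of the array at 15 °C. Their share was 0.233%, 1.46% and 0.294% after 3 h, 0.483%, 1.12% and 0.142% after 12 h, and 0.210%, 0.0355% and 0.211% in daf-2. In whole worms, fewer sperm-forming cells and less RNA per cell cannot be told apart.

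Among msp genes, msp-78 had the highest mean signal, with 3.15, 7.28 and 3.23 at 15 °C, 4.78, 7.18 and 5.07 after 3 h, 5.72, 6.82 and 3.90 after 12 h and 4.32, 2.00 and 4.20 in daf-2. The middle gene by mean signal, msp-74, read 1.79, 6.36 and 1.88 at 15 °C, 3.54, 6.35 and 3.75 after 3 h, 4.49, 5.78 and 2.77 after 12 h and 3.05, 0.67 and 2.94 in daf-2. The lowest, msp-142, read -1.89, 3.16 and -1.57 at 15 °C, -0.15, 3.04 and 0.19 after 3 h, 0.48, 2.02 and -1.05 after 12 h and -0.88, -3.54 and -0.90 in daf-2. These 3 genes followed the same course over the 12 arrays, although their own probes differ in brightness. In each, set B was the highest array of every N2 group and the lowest of daf-2. Ranks by brightness here order probes, not transcript levels.

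**Figure D1:**
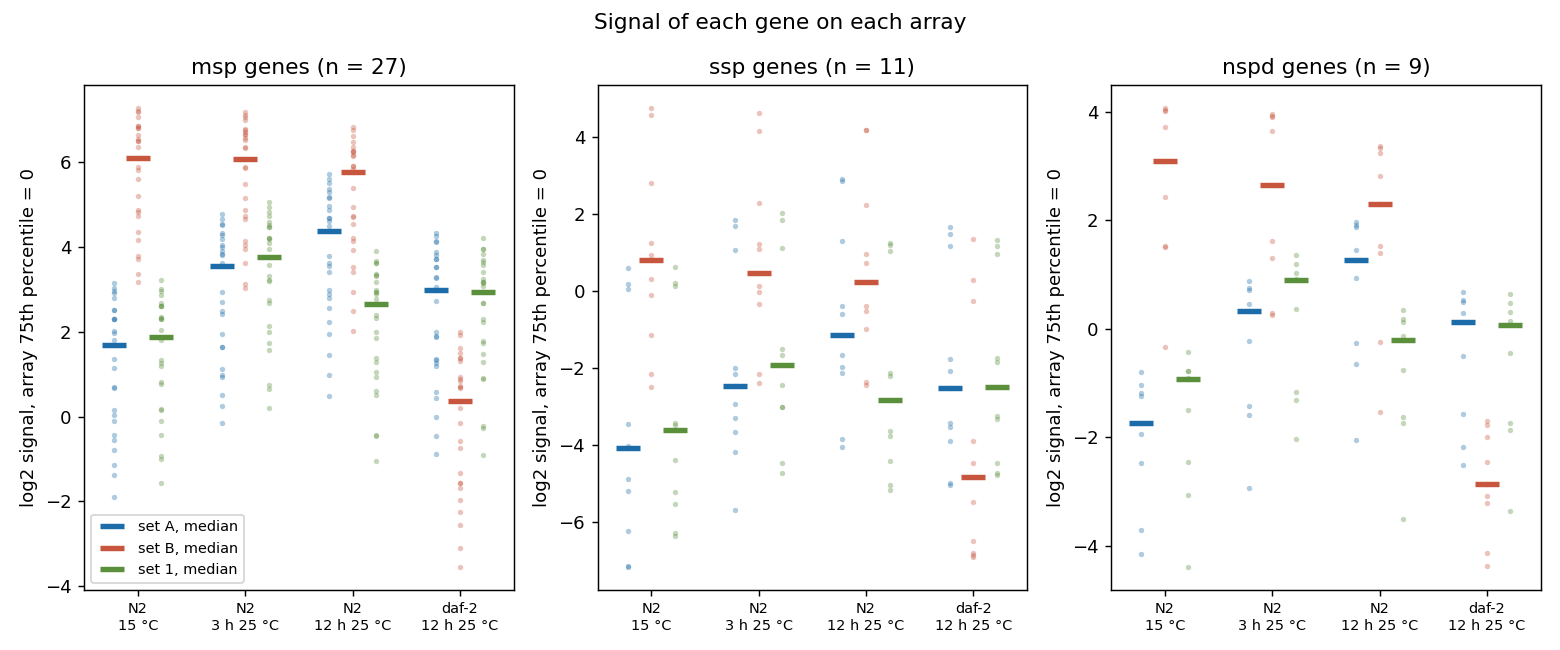
Log2 signal relative to the 75th percentile of the array (vertical axis) of each measured msp, ssp and nspd gene in the 4 groups (horizontal axis). Each point is 1 gene on 1 array, bars are medians of the family on that array, and colours mark the replicate set; the set B medians are the highest in the 3 N2 groups and the lowest in daf-2.

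The ssp genes likewise had set B highest in each N2 group and lowest in daf-2. Their median over 11 genes was -4.08, 0.80 and -3.63 at 15 °C, -2.48, 0.45 and -1.94 after 3 h, -1.15, 0.22 and -2.85 after 12 h, and -2.54, -4.83 and -2.52 in daf-2. The brightest, ssp-10, read 0.17, 4.56 and 0.12 at 15 °C, 1.67, 4.62 and 1.83 after 3 h, 2.84, 4.16 and 1.03 after 12 h and 1.66, 0.29 and 1.16 in daf-2. The middle gene, ssp-31, read -4.03, 0.80 and -3.63 at 15 °C, -2.48, 0.45 and -1.94 after 3 h, -1.15, 0.22 and -2.85 after 12 h and -2.54, -5.49 and -2.52 in daf-2, and was well above background on 2 of 3 daf-2 arrays. The dimmest, ssp-32, read -7.14, -2.49 and -6.29 at 15 °C, -4.18, -2.39 and -4.72 after 3 h, -4.07, -2.45 and -5.17 after 12 h and -5.0, -6.49 and -4.73 in daf-2, and was well above background on 2 of 3 arrays both at 15 °C and in daf-2.

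In the nspd genes, too, set B was the highest N2 array and the lowest daf-2 array by the median. Their median over 9 genes was -1.73, 3.10 and -0.92 at 15 °C, 0.33, 2.65 and 0.90 after 3 h, 1.26, 2.29 and -0.21 after 12 h, and 0.12, -2.87 and 0.07 in daf-2. The brightest, nspd-6, read -0.79, 4.03 and -0.44 at 15 °C, 0.75, 3.96 and 1.37 after 3 h, 1.92, 3.33 and 0.35 after 12 h and 0.48, -1.69 and 0.65 in daf-2. The middle gene, nspd-1, read -1.73, 2.43 and -0.92 at 15 °C, 0.33, 0.26 and 0.92 after 3 h, 1.26, 1.39 and -0.21 after 12 h and 0.12, -3.09 and 0.14 in daf-2, and so differed from the other members after 3 h, where its set B array was the lowest of the 3. The dimmest measured gene, nspd-9, read -4.15, -0.34 and -4.39 at 15 °C, -2.94, 0.29 and -2.03 after 3 h, -2.05, -1.53 and -3.51 after 12 h and -2.51, -4.38 and -3.35 in daf-2, with 2 of 3 daf-2 arrays well above background. Set B was the highest N2 array of nspd-6 and nspd-9 in each group.

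Spread within groups was wide for these genes. At 15 °C the SD over the 3 arrays had a median of 2.60 over the 47 members, against 0.30 over all genes. It was 1.56 against 0.27 after 3 h, 1.50 against 0.26 after 12 h, and 1.46 against 0.27 in daf-2. The SD of 46 members at 15 °C, 29 after 3 h, 43 after 12 h and 39 in daf-2 was above the 95th percentile of all genes in that group.

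In the N2 groups set B was the highest array for nearly all members. Set B was the highest of the 3 arrays for 47 of 47 members at 15 °C, where it was the highest for 31.4% of all genes. It was the highest for 46 of 47 after 3 h (34% of all genes), with nspd-1 as the exception, and for 47 of 47 after 12 h (26.6%). Set B exceeded the mean of sets A and 1 by a median of 4.49 (2.20 to 5.12) at 15 °C, 2.63 (-0.37 to 3.14) after 3 h and 2.14 (0.86 to 2.81) after 12 h. The medians of this difference over all genes were -0.09, -0.03 and 0.00. A difference above 2 was seen for 47 members at 15 °C (6.7% of all genes), 43 after 3 h (5.76%) and 37 after 12 h (2.45%).

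In the 9 N2 arrays, replicate set was tested with limma in a model of group and set. The F test for set passed an adjusted p of 0.05 for 46 of 47 members, where it passed for 32.1% of all genes tested. The member that did not pass was nspd-1 (F = 1.65, adjusted p = 0.339). Set B against set A passed for 42 members (11.6% of all genes), with a median difference of 2.94 (1.41 to 3.40). Set B against set 1 passed for 46 members (27.1%), with a median of 3.23 (1.43 to 4.06). Set 1 against set A passed for 0 members in limma (18.5% of all genes), with a median of -0.27 (-0.73 to 0.28) and adjusted p from 0.491 to 0.988.

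The count of 46 changed when single arrays were left out. Without the N2 array of 15 °C set 1 it was 0, without 3 h set B 1, without 12 h set 1 4, without 15 °C set B 12 and without 3 h set A 13. The count over all genes fell as well, from 4331 of 13484 to 185, 710, 1521, 1835 and 1753 in the same order. In each of these fits, as in the main fit, 46 members had an unadjusted p under 0.05. In the main fit 6581 of 13484 genes did, and in the fits without single arrays this number was not counted. With normexp background correction 10 members passed, and 1131 of 13484 genes.

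The largest F for set were those of msp-42 (F = 39.8, adjusted p = 0.0110), msp-37 (F = 28.8, adjusted p = 0.0134) and nspd-10 (F = 22.6). Both msp-42 and msp-37 are annotated as pseudogenes, as is msp-52, and these are the 3 pseudogenes among the measured msp genes. The signals of msp-42 were 2.29, 6.11 and 2.29 at 15 °C, 3.99, 6.64 and 4.18 after 3 h, 4.37, 6.35 and 2.99 after 12 h and 3.72, 1.31 and 3.18 in daf-2. The signals of msp-37 were 1.14, 5.80 and 1.34 at 15 °C, 2.71, 5.89 and 3.31 after 3 h, 3.40, 5.40 and 2.33 after 12 h and 2.73, 0.20 and 2.67 in daf-2. For nspd-10 they were -3.71, 1.51 and -3.07 at 15 °C, -1.58, 1.61 and -1.31 after 3 h, -0.26, 1.53 and -1.63 after 12 h and -1.57, -4.14 and -1.86 in daf-2. In all 3 genes set B lay above the other arrays of each N2 group and below those of daf-2. After nspd-1, the smallest F were those of nspd-7 (F = 10.96, adjusted p = 0.0358) and nspd-9 (F = 11.4, adjusted p = 0.0336), which still passed.

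The set difference was also read probe by probe. Of the 71 probes, 69 passed the filter, and set B exceeded the mean of sets A and 1 for 69 of them at 15 °C, 68 after 3 h and 69 after 12 h. It was below for 67 in daf-2. These counts were not made over all probes, and probes of the same gene or of near-identical copies are not independent of each other. Among the 13 genes with more than 1 kept probe, the widest disagreement at 15 °C was for ssp-10, with 1.71 and 4.42. The 5 probes of msp-40 gave 4.40 to 5.20.

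Sets A and 1 were also set against each other within each group. After 12 h the set A array was above the set 1 array for 47 of 47 members (50.2% of all genes), by a median of 1.71 (0.05 to 2.44). At 15 °C set A was the higher for 9 members (47.6% of all genes, member median -0.30) and after 3 h for 1 member (53.7%, median -0.42), so that most members were lower in set A at these times. In daf-2 it was the higher for 25 members (56.2%, median 0.02). Each of these compares single arrays and has no replicate of its own.

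In daf-2 the order of the sets was turned. Set B was the lowest of the 3 arrays for 45 of 47 members, where it was the lowest for 25% of all genes. It lay below the mean of sets A and 1 by more than 2 for 40 members (2.9% of all genes). The median difference was -2.52 (-3.46 to 0.28), against 0.05 over all genes. The 2 exceptions were ssp-36, at -5.06, -4.49 and -4.48 and well above background on 2 of the 3 daf-2 arrays, and ssp-37, at 1.46, 1.35 and 0.94. The other kept probe of ssp-36, well above background on 8 of 12 arrays, read -5.06, -7.06 and -4.52 in daf-2, with set B lowest. In the N2 groups ssp-37 read 0.57, 2.80 and 0.61 at 15 °C, 1.05, 2.27 and 1.12 after 3 h and 1.29, 2.23 and 1.24 after 12 h, the smallest set B difference of any member at 15 °C.

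Whether the set differences depended on the strain was tested with limma as an interaction of set and strain over all 12 arrays. The F test passed for 0 of 47 members (adjusted p 0.0617 to 0.319) and for 0.0672% of all genes. In that F test 44 members had an unadjusted p under 0.05, against 2952 of 13390 genes. Of its pairwise terms, set B against A passed for 0 members (0.0447% of all genes), set 1 against A for 0 (0.0372%) and set B against 1 for 2 (3.08%). The difference of set B from set A was lower in daf-2 than in N2 by 5.49 as the median of the members (interaction -6.56 to -1.57). The N2 side of this test averages the 3 N2 groups, so strain is mixed with temperature and time in it. At 12 h alone, the median difference of set B from the mean of sets A and 1 was 2.14 in N2 and -2.52 in daf-2. With 1 daf-2 array per set, the spread in this test came from the N2 arrays, with 4 residual degrees of freedom. The count of members was 41 without the N2 array of 12 h set A (860 of 13388 genes). Without that of 12 h set B it was 1 (708 of 13389 genes). It was 30 when arrays were centred on their median (724 of 13390 genes). When a probe had to be well above background on all 12 arrays, it was 8 of 41 members (299 of 11076 genes).

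**Figure D2:**
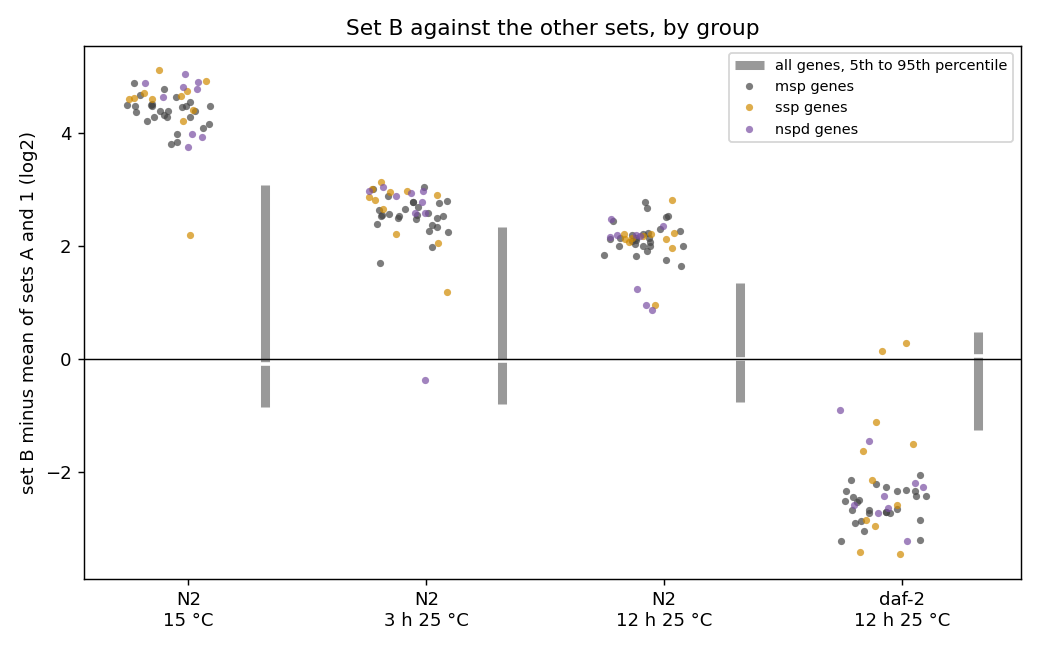
Log2 signal of the set B array minus the mean of the set A and set 1 arrays (vertical axis) in each group (horizontal axis), 1 point per measured gene, coloured by family. Grey bars run from the 5th to the 95th percentile of all genes with their median as a white mark. Members lie above 0 in the N2 groups, apart from nspd-1 after 3 h. In daf-2 they lie below 0, apart from ssp-37 and, on the probe used, ssp-36.

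Against this spread, no member passed the test for 3 h at 25 °C. The difference of 3 h from 15 °C passed for 0 of 47 members in limma. An unadjusted p under 0.05 was seen for 0 of them, against 1246 of 13486 genes. The fit, as in the other group comparisons, had no term for set, so set differences entered its spread. Of all genes, 1.02% passed. The fitted differences were above 0 for 47 of 47 members, with a median of 1.14 (0.15 to 1.96), a median SE of 1.35 and adjusted p from 0.905 to 0.999. The median over all genes was 0.02 with a median SE of 0.25. No member had groups that did not overlap (0 of 47, against 12.5% of all genes).

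The value differed by set. Within set A the difference was above 0 for 47 members, with a median of 1.69, and within set 1 for 47, with a median of 1.87. Within set B it was above 0 for 12 and below 0 for 35, with a median of -0.07. The medians over all genes were 0.01, 0.03 and 0.02 in sets A, B and 1.

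By moderated t the members nearest to a difference after 3 h were ssp-16, ssp-32, nspd-9 and msp-42. Signals of ssp-16 were -6.24, -1.14 and -5.55 at 15 °C, -3.68, -0.35 and -3.02 after 3 h, -2.13, -0.99 and -3.77 after 12 h and -3.44, -6.81 and -3.34 in daf-2, with dim arrays at 15 °C and in daf-2, where 2 of 3 were well above background. Its difference of 3 h from 15 °C was 1.96 (SE 1.48, adjusted p = 0.905). The other 3 differed by 1.54 (SE 1.17, adjusted p = 0.908), 1.40 (SE 1.14, adjusted p = 0.945) and 1.37 (SE 1.23, adjusted p = 0.977). In all 4 genes the 15 °C set B array lay above the 3 h arrays of sets A and 1, so that the groups overlapped.

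After 12 h at 25 °C no member passed against 15 °C either. The test passed for 0 of 47 members in limma (2.63% of all genes). An unadjusted p under 0.05 was seen for 0 (2124 of 13486 genes), and groups that did not overlap for 0 (20.6% of all genes). Differences were above 0 for 47 members, with a median of 0.93 (0.25 to 2.01) and adjusted p from 0.614 to 0.952. Within set A the median was 2.70 and within set 1 it was 0.73, each with 47 of 47 members above 0. Within set B it was -0.59, with 7 above and 40 below 0. This comparison and the one at 3 h share the 15 °C arrays.

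The members with the largest moderated t after 12 h were ssp-16, at 2.01 (SE 1.48, adjusted p = 0.614), ssp-35, ssp-32 and ssp-36. Signals of ssp-35 were -4.08, 0.92 and -3.43 at 15 °C, -2.17, 1.07 and -1.67 after 3 h, -0.40, 0.94 and -2.15 after 12 h and -1.77, -3.90 and -1.75 in daf-2, a difference of 1.66 (SE 1.37, adjusted p = 0.676). Those of ssp-36 were -7.17, -2.16 and -6.37 at 15 °C, -5.70, -2.18 and -4.48 after 3 h, -3.85, -2.37 and -5.04 after 12 h and -5.06, -4.49 and -4.48 in daf-2, a difference of 1.48 (SE 1.28, adjusted p = 0.692), on a probe that was well above background on 2 of 3 arrays in each group but N2 after 12 h. For ssp-32 the difference was 1.41 (SE 1.17, adjusted p = 0.677). Their set A arrays were higher by 4.10, 3.68, 3.08 and 3.33 in the order of naming.

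Leaving out set B, an alternative chosen after the data were seen, changed the unadjusted counts. In the fit of sets A and 1, 46 members after 3 h and 47 after 12 h had an unadjusted p under 0.05, with medians of 1.78 and 1.73. The number of all genes with such a p was not counted in this fit. The smallest adjusted p of the members were 0.318 and 0.129, so 0 members passed in limma at either time. Of 13486 genes, 1 passed after 3 h and 0 after 12 h. Since sets A and 1 carry the same replicate number in the labels, they may not be independent.

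Between 3 h and 12 h at 25 °C the direction of the members differed by set. Of 47 members 0 passed in limma (2.09% of all genes) and 0 had an unadjusted p under 0.05 (1643 of 13486 genes). Groups did not overlap for 0 (17.3% of all genes). Differences were above 0 for 11 and below 0 for 36, with a median of -0.20 (-0.81 to 0.39) and adjusted p from 0.971 to 1.00. Set A had 47 of 47 members above 0, with a median of 1.00. Set B had 4 above and 43 below, with a median of -0.52, and set 1 had 1 above and 46 below, with a median of -1.13. The median of all sets turned to 0.64 without the 3 h array of set B and to 0.59 without the 12 h array of set 1.

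In this comparison the largest moderated t were those of nspd-9, nspd-7, msp-142 and msp-50. Their differences were -0.81 (SE 1.14, adjusted p = 0.971), -0.45 (SE 1.06, adjusted p = 1.00), -0.55 (SE 1.44, adjusted p = 1.00) and -0.41 (SE 1.27, adjusted p = 1.00). The signals of nspd-7 were -2.47, 1.53 and -2.45 at 15 °C, -1.43, 1.30 and -1.16 after 3 h, -0.66, -0.24 and -1.74 after 12 h and -2.18, -2.87 and -1.74 in daf-2. Those of msp-50 were 1.36, 5.88 and 1.81 at 15 °C, 2.93, 5.85 and 3.58 after 3 h, 3.79, 4.93 and 2.40 after 12 h and 1.89, -0.15 and 2.67 in daf-2. Both genes were lower after 12 h than after 3 h in sets B and 1 and higher in set A.

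**Figure D3:**
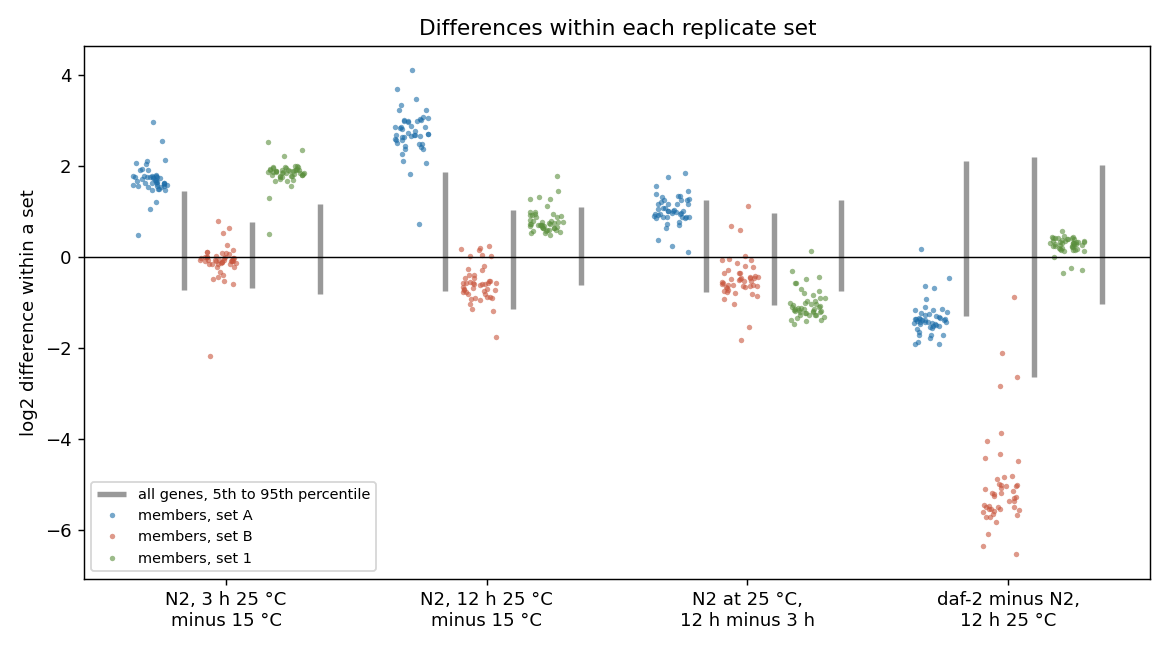
Log2 difference between groups within 1 replicate set (vertical axis) for the 4 comparisons (horizontal axis), 1 point per measured gene and set, with grey bars from the 5th to the 95th percentile of all genes. Members of 1 set mostly lie close together, and how far the sets lie apart differs by comparison. In daf-2 minus N2 the medians were -1.39 in set A, -5.25 in set B and 0.30 in set 1. For 3 h minus 15 °C they were 1.69, -0.07 and 1.87, so that sets A and 1 lie together.

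The strain comparison at 12 h and 25 °C gave the largest fitted differences and did not pass either. For daf-2 minus N2, 0 of 47 members passed in limma, where 22% of all genes did. An unadjusted p under 0.05 was seen for 0 members, against 4935 of 13486 genes. Differences were below 0 for 47 of 47 members, with a median of -2.13 (-2.94 to -0.33) and adjusted p from 0.200 to 0.685. The median over all genes was -0.14. Groups did not overlap for 1 of 47 members, nspd-7, against 43.5% of all genes, and its nearest arrays both read -1.74.

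By set, the medians of daf-2 minus N2 were -1.39 in set A, with 1 member above and 46 below 0, and -5.25 in set B, with 47 below. In set 1 the median was 0.30, with 43 above and 4 below. Without set B the median was -0.56, against -1.28 without the daf-2 array of set B alone and -1.41 without the N2 array of set B alone. In these 3 fits 0 members passed in limma.

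The largest moderated t for the strain were those of ssp-19, msp-50, msp-49 and msp-152. Signals of ssp-19 were -5.21, -0.10 and -5.24 at 15 °C, -3.31, -0.03 and -3.02 after 3 h, -1.99, -0.39 and -4.43 after 12 h and -3.90, -6.93 and -4.79 in daf-2, a difference of -2.94 (SE 1.56, adjusted p = 0.200), with 2 of 3 arrays well above background at 15 °C and in daf-2. Those of msp-49 were 2.51, 6.56 and 2.62 at 15 °C, 4.27, 6.07 and 4.47 after 3 h, 5.15, 6.75 and 3.33 after 12 h and 3.89, 1.39 and 3.57 in daf-2, a difference of -2.13 (SE 1.21, adjusted p = 0.226). Those of msp-152 were 0.67, 5.19 and 1.27 at 15 °C, 2.42, 5.16 and 3.22 after 3 h, 3.62, 4.73 and 2.01 after 12 h and 1.90, -0.57 and 2.31 in daf-2, a difference of -2.24 (SE 1.27, adjusted p = 0.228). For msp-50 the difference was -2.24 (SE 1.27, adjusted p = 0.226). In ssp-19, msp-49, msp-152 and msp-50 the N2 set 1 array lay within the range of the daf-2 arrays.

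Members moved together over the 12 arrays. The Pearson correlation of a member with the mean of the other members had a median of 0.994 (0.814 to 0.999). It was 0.982 to 0.999 for the msp genes, and under 0.9 for 3 members, ssp-37, ssp-36 and nspd-1. These values describe 12 arrays that share 3 slides, and copies with shared probe signal would correlate without being separate genes.

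The 5 genes outside the families whose signal was most like the mean of the msp genes were C12D8.3 (r = 0.999), Y59E9AR.7 (r = 0.999), nsph-4.2 (r = 0.998), ZK546.3 (r = 0.998) and C45G9.9 (r = 0.997), each over 12 arrays. C12D8.3 read 0.87, 5.62 and 1.17 at 15 °C, 2.58, 5.57 and 2.98 after 3 h, 3.51, 4.85 and 1.66 after 12 h and 2.10, -0.50 and 1.98 in daf-2. A correlation of 0.95 or more was found for 354 of 13177 genes outside the families (2.69%) and for 43 of the 47 members. The course over the arrays was thus shared by many genes outside the families.

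Other sperm genes were taken from a list of 45 genes of sperm formation and activation, of which 21 were tested. Replicate set among N2 arrays passed for 18 of the 21 (32.1% of all genes), and for 16 of these set B was above sets A and 1 (11.5% of all genes). The median excess of set B over the mean of the other sets was 2.74 (-0.78 to 3.64). The sperm-specific protein phosphatase genes gsp-3 and gsp-4 had the same course as the members. Signals of gsp-3 were -2.61, 2.27 and -2.01 at 15 °C, -1.0, 2.15 and -0.24 after 3 h, -0.29, 1.31 and -1.38 after 12 h and -2.01, -3.56 and -0.80 in daf-2, and those of gsp-4 were -3.33, 1.01 and -3.36 at 15 °C, -1.87, 1.43 and -1.76 after 3 h, -0.72, 0.74 and -2.70 after 12 h and -2.19, -3.75 and -2.18 in daf-2.

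In the group comparisons the sperm list had few calls. It had 0 after 3 h, and after 12 h 1 of 21 (2.63% of all genes), spe-6, a kinase of the casein kinase I family, rose against 15 °C, by 1.14 (SE 0.24, adjusted p = 0.0342). In daf-2 against N2, 2 of 21 genes fell, where 7.59% of all genes did: spe-6, at -0.97 (SE 0.24, adjusted p = 0.0156), and spe-41, a sperm calcium channel gene, at -1.62 (SE 0.50, adjusted p = 0.0421). The signals of spe-6 were -1.85, -1.13 and -2.0 at 15 °C, -1.22, -0.79 and -0.92 after 3 h, -0.39, -0.45 and -0.73 after 12 h and -1.30, -1.69 and -1.49 in daf-2, with smaller set differences than the members. The fertilisation gene spe-9 and the membrane fusion gene fer-1 did not pass the filter, with 5 and 2 of 12 arrays well above background.

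Of the other genes with a major sperm protein domain, 5 of 5 passed for replicate set (32.1% of all genes) and 0 in any of the 4 group comparisons. The genes msd-1, msd-2, msd-3 and msd-4 had set B above the other sets. The more widely expressed vpr-1 did not, at 3.24, 3.17 and 2.77 at 15 °C, 3.27, 3.26 and 2.96 after 3 h, 3.16, 3.20 and 2.51 after 12 h and 2.84, 2.95 and 2.22 in daf-2.

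Regulators of spermatogenesis did not share the set pattern. In the list of spermatogenesis transcription and germ cell fate genes, set passed for 2 of 12 tested (32.1% of all genes), with set B above both other sets in 0 of these, and the median set B excess was -0.15 (-0.42 to 0.30). The transcription factor gene spe-44, which switches on sperm genes, read 0.05, -0.66 and 0.03 at 15 °C, 0.14, -0.34 and 0.10 after 3 h, 0.24, -0.02 and -0.09 after 12 h and -0.58, -0.61 and -0.72 in daf-2. The GATA factor gene elt-1, which also acts on msp genes, read -2.42, -2.20 and -2.33 at 15 °C, -2.80, -2.55 and -2.64 after 3 h, -1.96, -1.77 and -1.74 after 12 h and -1.67, -1.0 and -1.26 in daf-2. In daf-2 against N2, 4 of 12 fell, where 7.59% of all genes fell and 22% passed in either direction, among them fog-1, which specifies sperm fate, at -1.25 (SE 0.21, adjusted p = 0.00254), and spe-44, at -0.68 (SE 0.22, adjusted p = 0.0487). The RNA-binding protein gene gld-1 also fell, at -1.09 (SE 0.34, adjusted p = 0.0461), without its missing daf-2 spot of set B. Between 3 h and 12 h, 1 of 12 rose (2.09% of all genes passed), elt-1, by 0.84 (SE 0.18, adjusted p = 0.0463), and 0 passed in either comparison with 15 °C.

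Genes of oocytes and of the response to major sperm proteins showed small differences between sets. In the list of sensing and oocyte maturation genes, set passed for 2 of 13 (32.1% of all genes), with a median set B excess of 0.05 (-0.33 to 0.49). The Eph receptor gene vab-1, a receptor for major sperm proteins, read 0.65, 0.32 and 0.72 at 15 °C, 0.36, 0.10 and 1.08 after 3 h, 0.40, 0.56 and 0.39 after 12 h and 0.39, 0.16 and 0.89 in daf-2. Oocyte markers, 2 of which (oma-1 and oma-2) are also on the sensing list, passed for set in 1 of 11, with a median of -0.13 (-0.45 to 0.21). The yolk receptor gene rme-2 read 6.90, 6.64 and 6.85 at 15 °C, 6.93, 6.68 and 6.97 after 3 h, 6.91, 6.90 and 6.66 after 12 h and 6.22, 5.64 and 6.17 in daf-2. Neither list had a call in the comparisons with 15 °C, while between 3 h and 12 h 1 oocyte marker, cav-1, rose by 1.39 (SE 0.25, adjusted p = 0.0283).

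In daf-2 against N2, 3 of 13 sensing genes (efn-2, acy-4 and itr-1) were higher, where 14.4% of all genes were higher and 22% passed in either direction. Of the 11 oocyte markers 3 passed, against the same 22%: 1 was higher, cav-1, at 1.49 (SE 0.25, adjusted p = 0.00234), and 2 were lower (7.59% of all genes), rme-2 at -0.81 (SE 0.18, adjusted p = 0.0112) and cbd-1 at -0.69 (SE 0.21, adjusted p = 0.0394). Yolk genes passed for set in 3 of 5 tested (32.1% of all genes), with set B below the mean of the other sets in all 5 (median -0.31, from -0.37 to -0.23), and 1 yolk gene, vit-1, was lower in daf-2, at -0.88 (SE 0.22, adjusted p = 0.0168). The yolk gene vit-2 read 7.22 and 7.98 at 15 °C in sets A and 1, with the set B spot missing, then 7.23, 7.20 and 8.16 after 3 h, 6.97, 7.45 and 7.87 after 12 h and 6.67, 6.80 and 7.69 in daf-2.

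**Figure D4:**
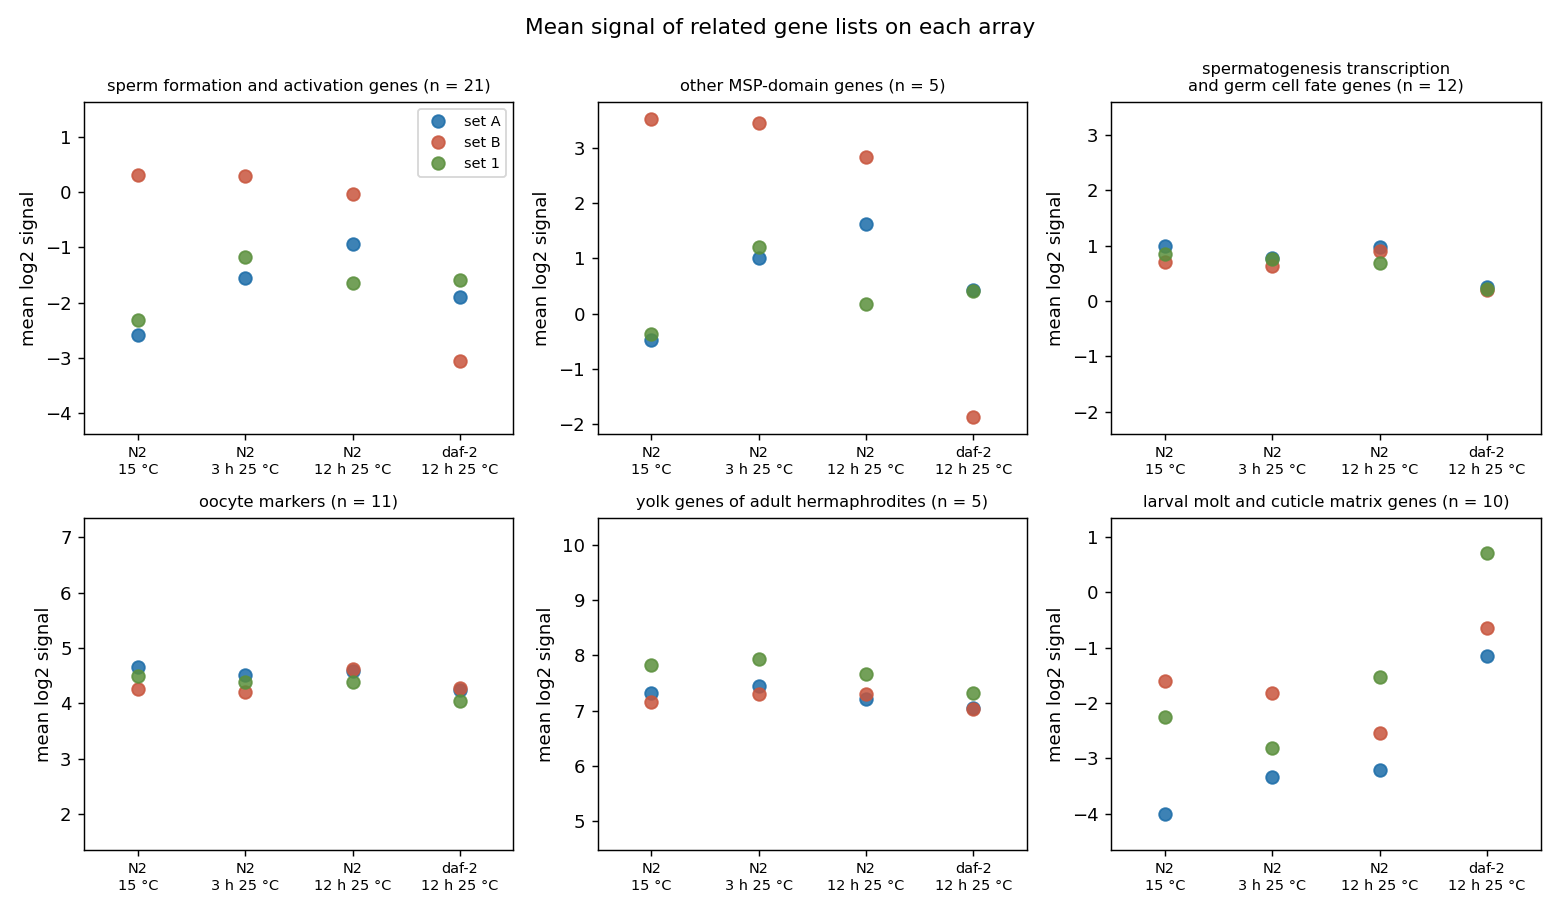
Mean log2 signal relative to the 75th percentile of the array (vertical axis, the same span in each panel) of the tested genes of 6 lists in the 4 groups (horizontal axis), 1 point per array, coloured by replicate set, with missing spots left out of the mean. In the sperm formation list and the other MSP-domain genes, set B is the highest in each N2 group and the lowest in daf-2. The sets lie close together in the germ cell fate list and the oocyte markers.

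Markers of other tissues were read as a measure of what else differed between arrays. Of the 10 male and seminal fluid markers 2 passed the filter, swm-1 and cwp-4, and 0 of these passed for set. Their summed signal, relative to the 75th percentile, was 2.57 to 3.83 at 15 °C, 3.25 to 3.84 after 3 h, 2.58 to 4.60 after 12 h and 3.93 to 5.21 in daf-2. The male sensory neuron gene pkd-2 was well above background on 3 of 12 arrays, at -7.16, -6.96 and -6.94 at 15 °C, -7.03, -7.33 and -6.37 after 3 h, -7.13, -7.24 and -7.43 after 12 h and -7.16, -6.93 and -8.15 in daf-2. Its polycystin partner lov-1 was so on 4 arrays, and cwp-3 and cwp-5 on 0.

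Larval molt and cuticle genes passed for set in 4 of 10 tested, where 32.1% of all genes did. In 3 of these set B was above sets A and 1 (11.5% of all genes), and in 1 it was below both. The median excess of set B over the mean of the other sets was 0.41 (-0.61 to 3.44). The summed signal of the list ran from 0.948 to 10.3 at 15 °C, 1.35 to 10.2 after 3 h, 1.67 to 4.73 after 12 h and 8.11 to 25.5 in daf-2. Its mean log2 signal in daf-2 was -1.15, -0.64 and 0.71, lowest in set A. The cuticle collagen gene sqt-1 read -4.18, 2.51 and -0.29 at 15 °C, -1.77, 2.53 and -0.65 after 3 h, -2.18, 0.83 and 0.19 after 12 h and -3.60, -3.96 and 0.88 in daf-2, with set B the highest in each N2 group and the lowest in daf-2, as for the members. The collagen gene rol-6 read -5.32, 1.11 and -0.42 at 15 °C, -2.88, 1.02 and -0.99 after 3 h, -3.61, -0.99 and -0.11 after 12 h and -4.18, -3.97 and 0.34 in daf-2. It did not share this order, with set B between the other sets after 12 h and in daf-2. In daf-2 against N2, 6 of 10 genes of the list rose (14.4% of all genes), with dpy-7, mlt-11 and sqt-3 at 4.87 (SE 1.05, adjusted p = 0.0110), 4.67 (SE 0.82, adjusted p = 0.00301) and 3.58 (SE 0.90, adjusted p = 0.0182), where the daf-2 spot of set 1 was missing for dpy-7. The part of the molt and cuticle signal in the member results was not tested.

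Spermatheca and sheath markers passed for set in 4 of 6 (32.1% of all genes). Set B was above both other sets in 3 of these (11.5%) and below both in 1, with a median excess of 0.43 (-1.91 to 1.13) over the list. The summed signal was 2.58 to 6.40 at 15 °C, 2.60 to 5.22 after 3 h, 2.85 to 3.54 after 12 h and 2.01 to 3.28 in daf-2. Body wall muscle markers passed for set in 1 of 8 and intestine markers in 1 of 8, against the same 32.1%. In the group comparisons the spermatheca and muscle lists had 0 calls, and the intestine list had 5 of 8 in daf-2 against N2 (22% of all genes), 2 higher and 3 lower, among them ges-1 at 2.30 (SE 0.19, adjusted p = 7.16e-05), ifb-2 at -1.47 (SE 0.43, adjusted p = 0.0363) and vha-6 at -1.41 (SE 0.27, adjusted p = 0.00460). The part of these tissues in the member results was not tested.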

How the data were processed

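Per the labels' protocols, RNeasy-purified total RNA was turned into Cy3 cRNA (Agilent Low Input Quick Amp). Signals were extracted, per the file headers, with Agilent Feature Extraction 10.10.1.1. The deposited processed signal is an intensity from which that software had subtracted background within the array, without scaling between arrays. Deposited median spot and local background intensity values served for the normexp alternative (offset 50), and deposited flags of 0 or 1 mark poorly detected, uneven or saturated spots. The authors' deposited series table, intensity values scaled by the authors by a method not given in the sources used here, was an alternative.

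Of 45220 spots, 1417 controls were left out, 28 to 146 uneven spots per array were set to missing, and 0 were saturated. Through a WBcel235 gene table, used for names only, 34320 of 43603 probes matched 1 gene. Log2 processed signals minus the array's 75th percentile were filtered to probes that each of the 3 arrays of some group showed well above background. The brightest probe stood for a gene, which left 13486 genes, with 344 missing values in 262 genes, none in members. Limma 3.58.1 in R 4.3.3 fitted all 12 arrays with 1 mean per group, and two-sided p-values were adjusted by Benjamini and Hochberg over all genes. Scripts were tested on simulated data. Tables and plots used Python, pandas, numpy and matplotlib.

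The members, the 11 gene lists and the tests were chosen with earlier results of these data known. Named members were, per comparison, the 4 with the largest moderated t, by family the brightest, middle and dimmest, the 3 largest and 3 smallest F for set, with fixed genes of sperm, oocytes and males, the 5 genes most like the msp mean, and up to 3 called genes of a list. Other genes were named after their values were seen. Same-set arrays deviated together in the N2 comparisons (correlations 0.446 to 0.893 in 3 of 3 sets). In the daf-2 comparison the correlations differed by set, at 0.389 in set A, -0.390 in set B and 0.132 in set 1. The main fit of the group comparisons did not use this pairing by slide, so set differences stayed in its spread. Set entered only in the replicate blocks, the tests for set and the differences within sets. Alternatives were quantile normalization, normexp, median centring, the series table, other filters and probe rules, replicate blocks, fewer groups or sets, and leaving out single arrays. The number of arrays limits the precision.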

Additional observations from a re-analysis of the deposited data

Results flagged for a closer look

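For 44 of the 47 members, set B was above the mean of sets A and 1 in each N2 group and below it in daf-2, so that arrays of the same slide lay on opposite sides by strain. The share of all genes with this pattern was not counted. The 3 members without this pattern were nspd-1, ssp-36 and ssp-37. Of these, ssp-36 lacked it on the probe used, while its other kept probe had the pattern. The difference between strains was tested as an interaction of set and strain in limma, and passed for 0 of 47 members (adjusted p 0.0617 to 0.319), with a median interaction of -5.49 for set B against set A. In daf-2 this rests on 1 array per set. The N2 side averages the 3 N2 groups, so strain is mixed with temperature and time in this test.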

How the results depend on the processing

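In each of the 4 group comparisons 0 of 47 members passed in limma under all 19 alternatives. The smallest adjusted p of any member ran from 0.269 to 1.00 for 3 h against 15 °C, 0.129 to 1.00 for 12 h against 15 °C, 0.774 to 1.00 for 12 h against 3 h and 0.0869 to 0.472 for daf-2 against N2. With the replicate block 0 members passed in any of them, with smallest adjusted p of 0.592, 0.327, 0.786 and 0.132, and the block changed no member's call. This block fits 1 set effect to all 12 arrays. Set B of the members lay above in N2 and below in daf-2, so the block cannot remove their set differences in full. The N2 groups were not compared in a blocked fit of the N2 arrays alone. Leaving out single arrays moved the median difference between 0.29 and 2.64 after 3 h (the highest without N2 15 °C set B), 0.15 and 2.45 after 12 h, -0.89 and 0.64 for 12 h against 3 h, and -2.91 and -1.28 for the strain. For 12 h against 3 h, nspd-7 turned to 0.10 without set B. Without single arrays it ran from -0.95 to 0.42, nspd-9 from -1.49 to 0.12, msp-142 from -1.31 to 0.46 and msp-50 from -1.02 to 0.46, above 0 without N2 3 h set B and, for both msp genes, without N2 12 h set 1 (0.22 and 0.24).

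Members passing for set among N2 arrays numbered 46, 10 with normexp, and 0 to 46 without single arrays. Over all genes these counts were 4331, 1131 and 185 to 5846. For set by strain the members numbered 0, 30 with median centring, 8 when well above background on all arrays, and 0 to 41 without single N2 arrays. Over all genes these counts were 9, 724, 299 and 0 to 860. In that test daf-2 arrays could not be left out. The cause was not tested. Normexp moved the median of all genes to 0.17 for 12 h against 15 °C and 0.11 for 12 h against 3 h. Dim ssp and nspd probes limit what low arrays can show.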
